A study of Mus musculus with 8 samples.

Results

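The 8 genes described here encode hepatocyte identity transcription factors: Hnf4a, the forkhead factors Foxa1, Foxa2 and Foxa3, the CCAAT/enhancer-binding proteins Cebpa, Cebpb and Cebpd, and Nr5a2, which encodes LRH-1. They were found as the probe sets whose only gene symbol in the platform annotation is one of these names. Of 8251 genes that could be found in this way, the 8 had 9 of 12422 non-control probe sets, 1 for each gene and 2 for Nr5a2. The samples were livers of 8 female Ames dwarf mice (df/df), 24 to 26 months old, fed a standard diet without restriction, each on 1 Affymetrix mouse U74Av2 array. The pituitary of Ames dwarf mice makes no growth hormone, thyroid-stimulating hormone or prolactin. All 8 mice were df/df and formed 1 group. The data therefore show level, range and agreement between livers, and no effect of genotype or diet. They are numbered by the replicate number in their titles. Each label speaks of a mouse without saying that the samples came from separate animals, so p-values measure the spread between these 8 samples.

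Hepatocyte identity is held by a small network of transcription factors that bind each other's genes and those of plasma proteins, gluconeogenesis, bile acid and lipid metabolism. HNF4-alpha is a nuclear receptor at the centre of it, the FOXA proteins open chromatin at liver enhancers, and LRH-1 is a nuclear receptor of bile acid and cholesterol genes. C/EBP-alpha maintains metabolic genes and restrains proliferation in the resting liver, whereas C/EBP-beta and C/EBP-delta are induced by interleukin 6, interleukin 1 and other stress signals and drive acute-phase genes.

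The promoter windows of the genes with the clearest contrasts between livers are shown first. Hnf4a and Cebpb differed most between livers, Cebpa is the C/EBP of the resting liver that Cebpb and Cebpd are compared with, and Foxa3 had its highest r with Foxa2. Each window holds 250 bases before and 50 bases after an annotated transcript start, from RefSeq on GRCm38.p6, 5′ to 3′ on the gene's strand. Capitals mark a match to the letters TATAAA, which are those of the TATA box, or to ATCAAT, a core of ONECUT sites.
Hnf4a, upstream start, chr2:163506607-163506906, plus strand: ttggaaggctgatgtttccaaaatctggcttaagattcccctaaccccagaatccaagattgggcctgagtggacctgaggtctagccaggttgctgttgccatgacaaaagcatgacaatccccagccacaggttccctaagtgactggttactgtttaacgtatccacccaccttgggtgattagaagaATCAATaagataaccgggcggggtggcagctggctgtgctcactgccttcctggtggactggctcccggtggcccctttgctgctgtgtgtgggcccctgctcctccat
Hnf4a, downstream start, chr2:163546905-163547204, plus strand: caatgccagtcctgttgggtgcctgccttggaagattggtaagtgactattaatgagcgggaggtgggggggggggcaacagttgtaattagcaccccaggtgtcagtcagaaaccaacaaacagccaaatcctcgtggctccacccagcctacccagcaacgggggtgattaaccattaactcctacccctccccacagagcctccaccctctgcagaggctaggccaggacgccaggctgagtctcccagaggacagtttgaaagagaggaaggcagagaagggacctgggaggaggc
Cebpb, chr2:167688665-167688964, plus strand: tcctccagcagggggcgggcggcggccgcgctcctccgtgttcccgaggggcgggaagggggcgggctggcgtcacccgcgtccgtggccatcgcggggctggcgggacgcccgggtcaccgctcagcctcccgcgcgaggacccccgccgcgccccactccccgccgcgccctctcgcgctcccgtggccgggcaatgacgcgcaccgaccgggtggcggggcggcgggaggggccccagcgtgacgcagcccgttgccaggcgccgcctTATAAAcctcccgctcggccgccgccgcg
Cebpa, chr7:35119043-35119342, plus strand: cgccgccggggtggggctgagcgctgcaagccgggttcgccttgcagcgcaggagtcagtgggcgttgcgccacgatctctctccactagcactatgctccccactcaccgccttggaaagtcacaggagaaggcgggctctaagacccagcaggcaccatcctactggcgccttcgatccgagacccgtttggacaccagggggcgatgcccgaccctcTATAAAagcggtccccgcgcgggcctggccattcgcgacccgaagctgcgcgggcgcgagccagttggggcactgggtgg
Foxa3, chr7:19023490-19023789, minus strand: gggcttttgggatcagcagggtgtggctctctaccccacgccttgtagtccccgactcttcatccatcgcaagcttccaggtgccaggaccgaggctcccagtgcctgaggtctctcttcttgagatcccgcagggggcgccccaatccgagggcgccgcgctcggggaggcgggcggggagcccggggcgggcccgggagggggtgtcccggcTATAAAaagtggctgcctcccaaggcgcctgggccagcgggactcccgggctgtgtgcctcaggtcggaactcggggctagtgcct

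Of the 8 genes, 7 had a window in the RefSeq table, with 11 windows in all, and Cebpd had no entry. The windows were searched on both strands for TGACGTCA (the cyclic AMP response element), TTCNNNGAA (STAT), TTGCNNAA (C/EBP), TGTTTAC (FOXA), the HNF1 palindrome, CAAAGTCCA (HNF4), TCAAGGTCA (LRH-1) and ATCAAT (ONECUT). TATAAA, added after the sequences had been seen, was searched on the gene's strand alone. TATAAA starts at base 221 of the Cebpa window, base 272 of the Cebpb window and base 215 of the Foxa3 window, against 8.32% of all 32851 windows that hold it. Counted from the annotated start, these are positions -30 in Cebpa and -36 in Foxa3, before the start, and 21 in Cebpb, which lies inside the transcript. ATCAAT was found in the upstream Hnf4a window and in 1 of 3 Foxa2 windows (7.54% of all windows), TGTTTAC in the Foxa1 window (3.65%) and TTGCNNAA in 1 of 2 Nr5a2 windows (10.8%). The other 5 motifs matched no window of the 7 genes, which says only that these letters are not in these windows. The Cebpb window was the richest in guanine and cytosine, at 80.7%, above 99.2% of all windows, and the Cebpa window was at 67.3%. The Hnf4a windows held 54.0% and 57.3%, close to the median of 52.7% over all windows, and the 2 Nr5a2 windows 42.0% and 49.0%. No match overlapped another, and a match is a description of letters, not a measured binding site. The array gives no values by start site, so the upstream and downstream Hnf4a transcripts were not told apart.

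Signals are intensities on a linear scale as deposited, and folds are the highest over the lowest liver. All 9 probe sets lay above the median signal of the non-control probe sets, 162, which was needed for testing. The labelled tissue was checked against hepatocyte markers: 13 of 15 were on the array with a single symbol, all 13 passed the filter, and albumin (Alb) had a signal of 30240 ± 4290 (SD, n = 8). None of 4 cholangiocyte markers passed it. Of the macrophage and Kupffer cell markers, 13 of 17 passed, and their summed signal was 6773 in liver 7, the lowest, and 4.61 times that in liver 4, at 31220. Array medians lay between 155.6 in liver 3 and 180.8 in liver 8. The 3′ to 5′ ratio of the pyruvate carboxylase controls, a sign of RNA integrity, lay between 2.93 and 8.81 and was highest in liver 2. The same ratio of the Gapdh controls lay between 0.806 in liver 8 and 0.969 in liver 5. That of the actin controls lay between 1.24 in liver 4 and 1.74 in liver 7, so neither was highest in liver 2. The spike-in controls were brighter on arrays 1 to 4 (mean log2 signal 10.70 to 10.88) than on arrays 5 to 8 (10.18 to 10.46), and the labels name no batch. In whole liver, fewer cells of a type and less RNA per cell cannot be told apart.

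**Figure D1:**
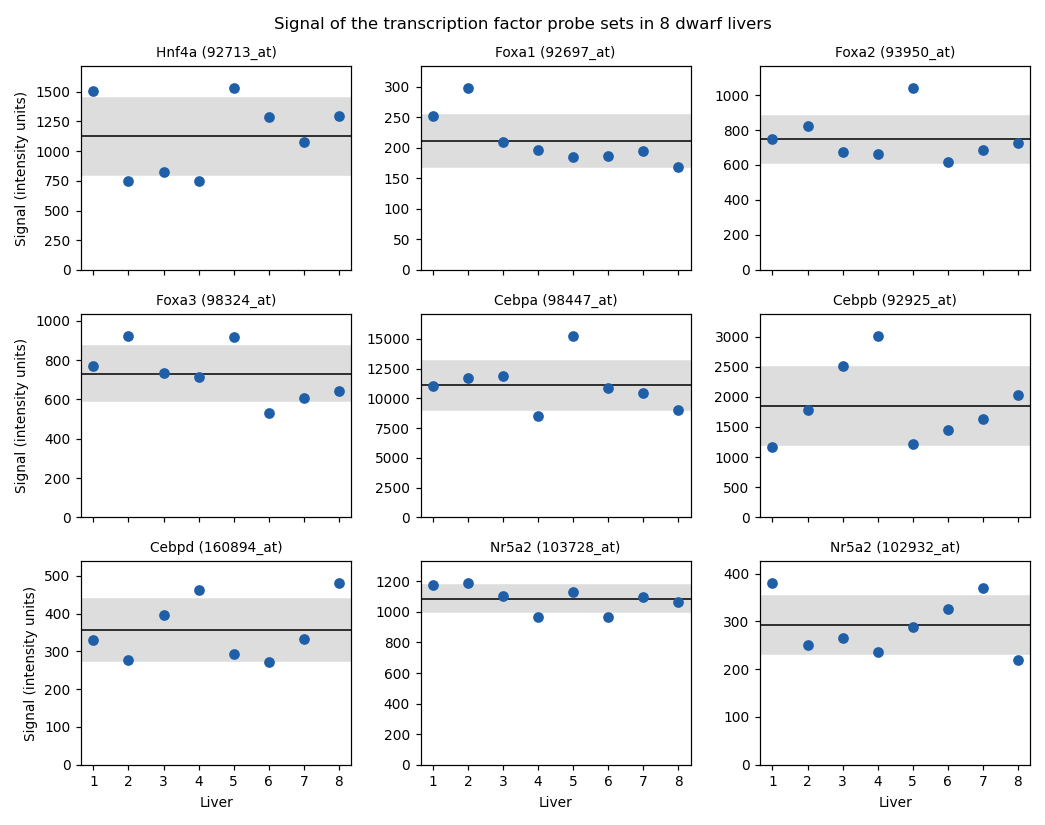
Signal (linear intensity, axis from 0) of each of the 9 probe sets in each of the 8 livers, 1 point per array, with the mean as a line and the mean ± SD (n = 8) as a grey band. Cebpb reached 3016 in liver 4 and Hnf4a was lowest in livers 2, 3 and 4, whereas Nr5a2 on its brighter probe set stayed between 964 and 1189.

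Cebpb and Hnf4a differed between livers more than most genes of like signal did, and the other 6 did not pass that test. The standard deviation (SD) of the log2 signal was 0.49 for Cebpb and 0.43 for Hnf4a, against a median of 0.235 over all 6211 tested probe sets. In the typical-variance test, which sets each variance against the usual variance at that signal and takes no account of how much variances differ among genes, Cebpb had an adjusted p of 0.000389 and Hnf4a of 0.00683, with n = 8 and adjustment over all 6211 probe sets. That test called 11.3% of all tested probe sets, so 2 of 9 is not far from the background and says nothing particular about this family. In the limma test, which allows for the spread of variances among probe sets, 0 of 9 passed. Over all 6211 probe sets the limma test called 0%, and 6.84% had an unadjusted p under 0.05. Among the members only Cebpb was under it (unadjusted p = 0.0399, adjusted p = 0.669, limma, n = 8).

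Among the 200 tested probe sets nearest in signal, the SD of Cebpb exceeded 93.5% and that of Hnf4a 91.5%. The SDs of Cebpa, Foxa3 and Cebpd exceeded 75.0%, 74.5% and 73.5% of their neighbours, that of Foxa2 64.0% and that of Foxa1 38.0%. The brighter Nr5a2 probe set varied less than nearly all, with an SD above only 9.0% of its neighbours. The median fold of the 9 probe sets was 1.76, beside 1.63 over all tested probe sets.

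**Figure D2:**
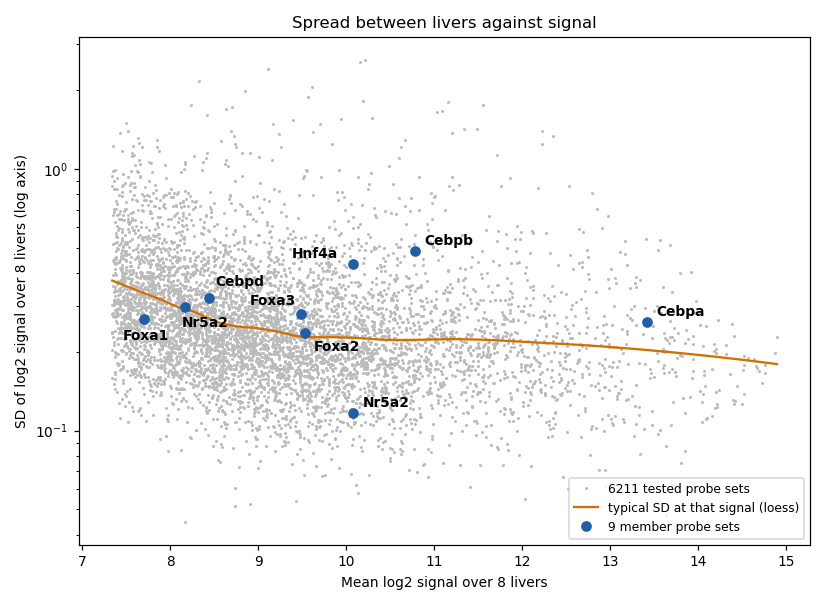
SD of the log2 signal over 8 livers (log axis) against mean log2 signal for all 6211 tested probe sets (grey), the typical SD at each signal (line) and the 9 member probe sets (blue). Cebpb (0.49) and Hnf4a (0.43) lie well above the line, and the brighter Nr5a2 probe set (0.12) lies below it.

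Hnf4a encodes the nuclear receptor HNF4-alpha, whose loss in the adult liver ends much of the hepatocyte programme. Its probe set, 92713_at, read 1503, 746, 823, 751, 1529, 1284, 1080 and 1292 in livers 1 to 8, a mean of 1126 ± 324 (SD, n = 8) and a range of 2.05-fold. Livers 2, 3 and 4 were low, at 746 to 823, and the other 5 were at 1080 or above, with livers 1 and 5 at the top. The lowest liver was liver 2 as deposited and liver 4 after scaling to a common median or by quantiles, since the 2 differ by less than 1% as deposited. The call in the typical-variance test held in each of 14 other settings, with adjusted p between 0.0044 and 0.0498, the weakest without liver 2. The low livers were also those with the higher pyruvate carboxylase ratios, at 8.81, 6.04 and 4.69. In livers 2, 3 and 4 the Gapdh ratio was 0.882, 0.886 and 0.874, and the actin ratio 1.6, 1.41 and 1.24. These Gapdh ratios lay above those of livers 1, 6 and 8 (0.844, 0.822 and 0.806). Livers 5 and 7 were at 0.969 and 0.883. The actin ratio was highest in liver 7, at 1.74. Over the 8 livers the Pearson correlation of Hnf4a with the pyruvate carboxylase ratio was r = -0.75 (exact two-sided permutation p = 0.0164, adjusted p = 0.326 over 32 relations). By rank the correlation was weaker (Spearman's rho = -0.64, exact permutation p = 0.0962, adjusted p = 0.605). Livers 2 and 3 were farthest from the median ratio, and leaving them out gave r = -0.57. Within arrays 1 to 4 r was -0.71, and within arrays 5 to 8 it was 0.10. The part of RNA integrity in the level of Hnf4a was not tested further.

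The FOXA genes encode pioneer factors that can bind closed chromatin, and they are expressed from early endoderm onward. Foxa1 (92697_at) read 252, 297, 209, 196, 185, 187, 194 and 169 in livers 1 to 8 (211 ± 42.6, SD, n = 8). Livers 2 and 1 were highest and the other 6 lay between 169 and 209. Its r with the pyruvate carboxylase ratio was 0.72 (exact permutation p = 0.0516, adjusted p = 0.326) and its rho 0.62 (exact permutation p = 0.115). That r was -0.01 without livers 2 and 3, so the r over all 8 livers rests on those livers. Within arrays 1 to 4 it was 0.53, and within arrays 5 to 8, which hold neither of them, 0.59.

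Foxa2 (93950_at), also a regulator of lipid and bile acid handling in the liver, read 749, 826, 673, 661, 1039, 617, 684 and 727 in livers 1 to 8. The mean was 747 ± 134 (SD, n = 8) and the range 1.69-fold. Foxa3 (98324_at), the FOXA gene most restricted to endodermal organs in the adult, read 771, 925, 735, 712, 918, 532, 605 and 646. Its mean was 730 ± 140 (SD, n = 8) and its range 1.74-fold. Livers 2 and 5 held the highest values of both genes and liver 6 the lowest, and neither gene passed the typical-variance test (adjusted p = 0.966 and 0.638, n = 8).

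Foxa2 and Foxa3 had the highest Pearson r of the pairs of members. By rank each was slightly closer to Nr5a2 on its brighter probe set (rho = 0.81 for both). Over the 8 livers r was 0.82 (exact two-sided permutation p = 0.00851, adjusted p = 0.238 over 28 pairs) and rho was 0.79 (exact permutation p = 0.0279, adjusted p = 0.261). The pair did not pass after adjustment. Without livers 5 and 2, the farthest from the median of Foxa2, r was 0.64. Within arrays 1 to 4 r was 0.96 and within arrays 5 to 8 it was 0.999, and the first set had the higher Foxa3 at a like Foxa2. With both genes centred within the 2 sets of arrays r was 0.99. An exact permutation over the 576 pairings within sets then gave p = 0.00174, the smallest it can give, and an adjusted p of 0.0486. Over all 8 livers Foxa1 had r = 0.17 with Foxa2 and 0.57 with Foxa3 (exact permutation p = 0.681 and 0.144). Within arrays 1 to 4 it followed both, with r = 0.997 and 0.95, and within arrays 5 to 8 it followed neither, with r = -0.09 and -0.10.

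**Figure D3:**
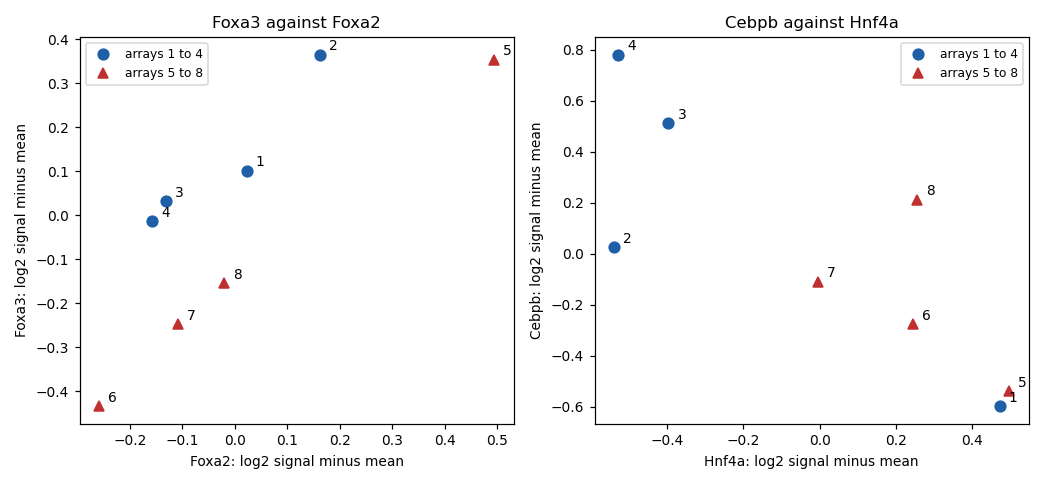
Log2 signal minus its mean over 8 livers for Foxa3 against Foxa2 (left) and Cebpb against Hnf4a (right), 1 point per liver, numbered, with circles for arrays 1 to 4 and triangles for arrays 5 to 8. The Foxa points form a line within each set of arrays, and the right panel runs downward, from liver 4 to livers 1 and 5 (r = -0.81).

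The 3 C/EBP genes did not move as a family: Cebpa was lowest in livers 4 and 8, where Cebpd was highest and where Cebpb ranked 1 and 3. Cebpa (98447_at), the C/EBP of the differentiated resting liver, read 11032, 11708, 11885, 8493, 15276, 10835, 10482 and 9012 in livers 1 to 8. Its mean was 11090 ± 2071 (SD, n = 8) and its range 1.80-fold. Liver 5 stood highest at 15276, livers 4 and 8 were the lowest, and the other 5 lay between 10482 and 11885. It did not pass the typical-variance test (adjusted p = 0.514, n = 8), and without liver 5 its SD went from 0.26 to 0.18.

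Cebpb (92925_at), the stress-inducible C/EBP of the acute phase and of liver regeneration, read 1161, 1787, 2503, 3016, 1209, 1450, 1628 and 2033 in livers 1 to 8. The mean was 1848 ± 646 (SD, n = 8) and the range of 2.60-fold was the widest of the 9 probe sets. Livers 4 and 3 were highest and livers 1 and 5 lowest. Its call in the typical-variance test held in each of 14 other settings, with adjusted p between 0.00014 and 0.0155, and its SD was 0.41 without livers 4 and 8.

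Cebpd (160894_at), which encodes the C/EBP that rises early in the acute phase and is low in resting liver, read 331, 278, 397, 463, 294, 272, 333 and 481. The mean was 356 ± 81.8 (SD, n = 8) and the range 1.77-fold. Livers 8, 4 and 3 were highest, at 397 to 481, and the other 5 lay between 272 and 333. It did not pass the typical-variance test (adjusted p = 0.663, n = 8), and its SD of 0.32 was 0.21 without livers 4 and 8.

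Cebpb and Cebpd tended to the same livers and Cebpa to the opposite ones, but none of these relations passed after adjustment. Between Cebpb and Cebpd r was 0.72 (exact permutation p = 0.0482, adjusted p = 0.273 over 28 pairs) and rho 0.64 (exact permutation p = 0.0962). It was 0.69 without livers 4 and 1, and 0.72 and 0.87 within arrays 1 to 4 and 5 to 8. Between Cebpa and Cebpd r was -0.68 (exact permutation p = 0.0586, adjusted p = 0.273) and rho -0.52 (exact permutation p = 0.197). Between Cebpa and Cebpb r was -0.61 (exact permutation p = 0.104, adjusted p = 0.325) and rho -0.43 (exact permutation p = 0.299). Without livers 5 and 4, the farthest from the median of Cebpa, this last r was 0.01, so it rests on those livers. Leaving out livers 5 and 4 gave r = -0.60 for Cebpa with Cebpd. Within arrays 1 to 4 and 5 to 8 this pair had r = -0.71 and -0.66, and Cebpa with Cebpb had -0.50 and -0.94. Without livers 4 and 8 the r of Cebpa was -0.13 with Cebpd and -0.22 with Cebpb.

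The balance between the C/EBP genes can be followed within each liver, relative to its own mean over the 8 livers. The log2 difference of Cebpb from Cebpa was highest in liver 4, at 1.14 above its mean, then 0.49 in liver 8 and 0.39 in liver 3. It was lowest in livers 5 and 1, at -1.02 and -0.61, so it spanned 4.49-fold. The log2 difference of Cebpd from Cebpa was 0.77 in liver 4 and 0.74 in liver 8, against -0.73 in liver 5, and spanned 2.83-fold. The 2 inducible genes differed from each other less, with a span of 1.86-fold. Livers 1, 5 and 8 favoured Cebpd, at 0.53, 0.30 and 0.26, and livers 4, 2 and 3 favoured Cebpb, at -0.37, -0.35 and -0.32.

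**Figure D4:**
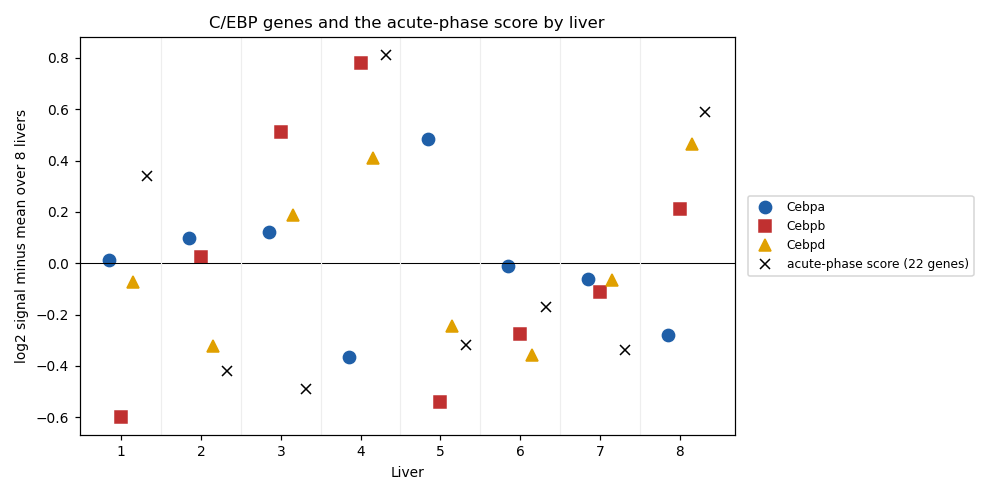
Log2 signal minus its mean over 8 livers for Cebpa, Cebpb and Cebpd, and the acute-phase score (mean of the same quantity over 22 acute-phase genes), by liver, 1 array each. In liver 4 Cebpb stands 0.78 above its mean and Cebpa 0.36 below, and in liver 5 Cebpa stands 0.48 above and Cebpb 0.54 below.

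The acute-phase score, the mean centred log2 signal of 22 genes for plasma proteins of the acute phase, was 0.81 in liver 4, 0.59 in liver 8 and 0.34 in liver 1, and lowest in liver 3, at -0.49. Cebpa ran against it, with r = -0.75 (exact permutation p = 0.0243, adjusted p = 0.326 over 32 relations, 0.192 over all 4819 genes). By rank, rho = -0.71 (exact permutation p = 0.0576, adjusted p = 0.555). An r below 0 with an unadjusted p under 0.05 was found for 9.55% of the 4819 tested genes, and one above 0 for 8.38%. Without livers 4 and 8 the r of Cebpa was -0.27, so the relation rests on those livers. For Cebpd r was 0.69 (exact permutation p = 0.0581, adjusted p = 0.326) and rho 0.38 (exact permutation p = 0.36), with r = -0.09 without livers 4 and 8. For Cebpb r was 0.32 (exact permutation p = 0.43, adjusted p = 0.764) and rho 0.05 (exact permutation p = 0.935). Liver 3 had the second highest Cebpb signal, 2503, and the lowest acute-phase score. Without livers 4 and 8 the r of Cebpb with the score was -0.71.

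The macrophage score, over the 13 tested macrophage and Kupffer cell markers, all of them highest in liver 4 and 12 of them past the typical-variance test, was also highest in livers 4 and 8, at 1.35 and 0.84, and was -0.73 in liver 3. C/EBP-beta and C/EBP-delta are also made by macrophages. The r with this score was -0.68 for Cebpa, 0.41 for Cebpb and 0.62 for Cebpd (exact permutation p = 0.0612, 0.311 and 0.105, adjusted p = 0.326, 0.663 and 0.421). The rho was -0.55, 0.14 and 0.33 (exact permutation p = 0.171, 0.752 and 0.428). Without livers 4 and 8 these r were 0.07, -0.70 and -0.56. Cd14 is in both the acute-phase and the macrophage list. With the array median, which was highest in livers 8 and 4, the r of Cebpa was -0.70 and its rho -0.83 (exact permutation p = 0.0549 and 0.0154, adjusted p = 0.326 and 0.492). Leaving out livers 8 and 3 gave r = -0.77. The part of macrophage content and array scaling in the C/EBP levels was not tested. None of the 32 relations of members with these 4 measures passed after adjustment. By rank, only Cebpa with the array median had an unadjusted permutation p under 0.05. For 2 relations r had an unadjusted permutation p under 0.05, Cebpa with the acute-phase score and Hnf4a with the pyruvate carboxylase ratio. Over all 4819 tested genes, 9.15% had such an r below 0 and 8.22% above 0 with the macrophage score, 8.67% and 7.45% with the array median, and 4.13% and 2.76% with the pyruvate carboxylase ratio. After adjustment over all genes, 3.07% passed with the acute-phase score, 1.66% with the macrophage score and 0% with the other 2 measures.

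Nr5a2 encodes LRH-1, a nuclear receptor that drives bile acid synthesis genes together with HNF4-alpha. Its brighter probe set, 103728_at, read 1178, 1189, 1106, 964, 1134, 965, 1096 and 1062 in livers 1 to 8 (1087 ± 86.3, SD, n = 8). With a range of 1.23-fold it was the most even of the 9 probe sets. The dimmer probe set, 102932_at, read 380, 250, 266, 235, 289, 325, 370 and 220 (292 ± 60.8, SD, n = 8) and ranged 1.73-fold. Liver 4 was low on both, but liver 2 was highest on the brighter one and among the 3 lowest on the dimmer one. The 2 probe sets correlated with r = 0.23 (exact permutation p = 0.576) and rho = 0.31 (exact permutation p = 0.462). Leaving out livers 4 and 6 gave r = 0.32. The median r between probe sets of 1 gene was also 0.23, over 679 genes. The other 7 members had 1 probe set each, so for them no second reading of the same transcript was available.

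Among all 28 pairs of members, 14 had r above 0 and 14 below, between -0.81 and 0.82. The median r was 0.00, beside 0.01 over all pairs of tested genes. Over all those pairs the 5th and 95th percentiles of r were -0.67 and 0.68, so values of this size are common with 8 arrays. None passed after adjustment (smallest adjusted p = 0.238, exact permutation), and 4 had an unadjusted permutation p of r under 0.05. By rank, Nr5a2 on its brighter probe set had rho = 0.81 with Foxa2, 0.81 with Foxa3 and 0.74 with Cebpa. Their exact permutation p were 0.0218, 0.0218 and 0.0458, and the adjusted p 0.261, 0.261 and 0.321. The r of these pairs were 0.63, 0.71 and 0.57 (exact permutation p = 0.089, 0.0509 and 0.142). For Hnf4a and Cebpb r was -0.81 (exact permutation p = 0.019, adjusted p = 0.266) and rho -0.71 (exact permutation p = 0.0576, adjusted p = 0.322). Livers 3 and 4 were low in Hnf4a and high in Cebpb, and livers 1 and 5 were the reverse. This r was -0.86 without livers 2 and 4, -0.88 without livers 4 and 8, and -0.83 and -0.54 within arrays 1 to 4 and 5 to 8. For Foxa2 and Cebpa r was 0.73 (exact permutation p = 0.0492, adjusted p = 0.273) and rho 0.55 (exact permutation p = 0.171), and both genes were highest in liver 5. It was 0.26 without liver 5 and -0.07 without livers 5 and 2. The 2 C/EBP genes of the stress response had negative r with each of Hnf4a, Foxa1, Foxa2, Foxa3, Cebpa and Nr5a2. Over all tested genes, only 43.7% had r above 0 with Cebpb and 44.3% with Cebpd. The 12 pairs share genes and the same 8 arrays, so they are not separate observations. Of them only Hnf4a with Cebpb had an unadjusted permutation p of r under 0.05. Without the 2 livers farthest from the median, 5 of the 12 r were above 0: Foxa1 with Cebpb (0.38), Foxa2 with Cebpd (0.38), Nr5a2 with Cebpd (0.23) and with Cebpb (0.13), and Cebpa with Cebpb (0.01). The other 2 pairs of the 14 below 0 joined Hnf4a to Foxa1 (r = -0.37, exact permutation p = 0.368) and to Foxa3 (r = -0.15, exact permutation p = 0.721).

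**Figure D5:**
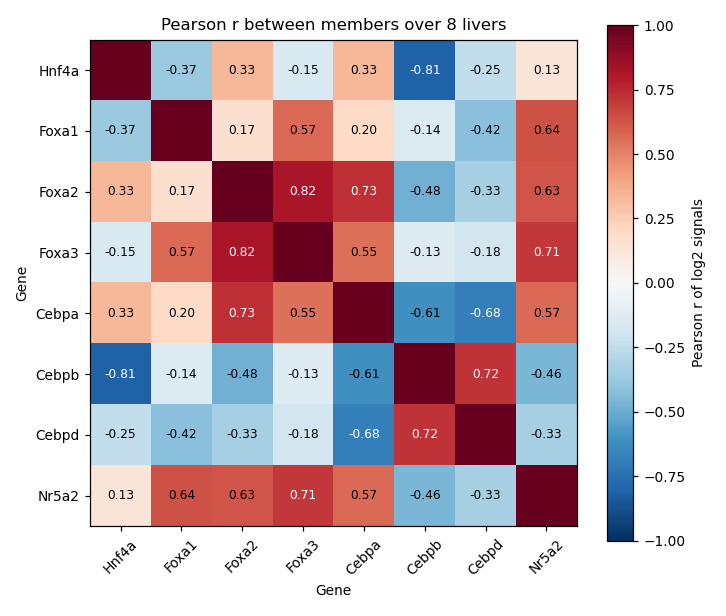
Pearson r of log2 signals over 8 livers for each pair of the 8 genes (Nr5a2 by its brighter probe set), on a scale from -1 (blue) to 1 (red). Cebpb and Cebpd form negative rows against the other 6 genes, with -0.81 for Cebpb and Hnf4a, and the highest value is 0.82 for Foxa2 and Foxa3.

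The relatives of these factors were little represented. Onecut1, the founding ONECUT factor HNF6, read 74.6 to 155 (125 ± 27.3, SD, n = 8), below the signal needed for testing. Cebpg, a C/EBP without an activation domain of its own, read 130 to 266 and did not pass the typical-variance test (adjusted p = 0.969, n = 8). Ddit3, the stress-induced C/EBP relative CHOP, was not tested and read 37.1 in liver 3 and 225.5 in liver 4.

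Of 21 tested genes for other hepatocyte transcription factors, 4 passed the typical-variance test, or 19.0%, beside 10.3% of all 4819 tested genes, and 0 passed the limma test. Their median fold was 1.71. Ppara, the fatty acid-sensing receptor, had an SD of 0.94 in log2 signal and ranged 5.79-fold. Nr1i3, the drug-sensing receptor CAR, ranged 2.84-fold, Nr1h4, the bile acid receptor FXR, 2.12-fold, and the clock-output factor Tef 2.11-fold. Foxo3 and Nr2f6 were the most even, at 1.30-fold and 1.34-fold. Of the 21, 9 were lowest in liver 4, where 22.4% of all tested genes had their lowest value.

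Of 20 tested genes of C/EBP relatives and of interleukin 6, interleukin 1 and tumour necrosis factor signalling, 4 passed the typical-variance test (20%) and 0 the limma test. Socs1, an inhibitor of cytokine signalling, ranged 33.2-fold and was highest in liver 4. Il6ra, the interleukin 6 receptor, ranged 4.61-fold and was highest in liver 3, at 1076. Atf3, a stress-induced factor, and Il1rn, the interleukin 1 receptor antagonist, ranged 3.06-fold and 3.50-fold, both highest in liver 4. Tnfrsf1a was the most even, at 1.27-fold, followed by Rela at 1.39-fold. Il6 itself read at most 25.4 and was not tested.

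Of 29 tested textbook targets of HNF4, HNF1, FOXA and C/EBP-alpha, 6 passed the typical-variance test (20.7%) and 0 the limma test. Igfbp1 ranged 14.3-fold, glucose-6-phosphatase (G6pc) 6.21-fold, apolipoprotein B (Apob) 5.05-fold and Cyp7a1, the rate-limiting enzyme of bile acid synthesis, 2.85-fold. Coagulation factor X (F10) and arginase 1 (Arg1) ranged 1.13-fold and 1.32-fold. More of these targets had a Pearson r above 0 with Cebpa than with Hnf4a, and as many had one with Foxa1 as with Cebpa. Over 8 livers, 23 of 29 targets had r above 0 with Cebpa, with a median r of 0.44, beside 54.7% of all genes and a median of 0.08. For Hnf4a the count was 14 of 29 with a median of -0.10, beside 55.1% and 0.06. For Foxa1 it was 23 with 0.28, beside 52.9% and 0.03, for Foxa2 21 with 0.13, beside 54.1% and 0.05, and for Foxa3 22 with 0.24, beside 50.5% and 0.00. For Cebpb it was 11 with -0.04, beside 43.7% and -0.09, and for Cebpd 9 with -0.17, beside 44.3% and -0.09. The named probe sets of Igfbp1, Atf3 and Saa2 carry a suffix for sequence shared with other transcripts, so their signals may hold more than 1 gene. That of Nr1i3 carries a different suffix letter, r. It was left out with them in the setting without shared-sequence probe sets, and its signal may also be less specific. These values are descriptions over the same 8 arrays, and the difference between the members was not tested.

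Of 22 acute-phase genes, 11 passed the typical-variance test (50%) and 0 the limma test. The widest were Saa3 (93.8-fold), Lcn2 (76.7-fold), Saa2 (31.7-fold) and Orm2 (19.9-fold), and the most even Hp and Hpx (1.23-fold and 1.33-fold). With Cebpa, 18 of the 22 had r below 0 (median -0.62), from -0.92 for Itih4 to 0.92 for the hepcidin gene Hamp. With Cebpb, 18 of 22 had r above 0 (median 0.24), highest for Cd14 (0.67), and with Cebpd 17 of 22 (median 0.58), highest for Orm1 (0.83). Over all genes the medians were 0.08 for Cebpa and -0.09 for both Cebpb and Cebpd, with 54.7%, 43.7% and 44.3% of genes above 0. These counts come from the same 22 genes and 8 arrays as the acute-phase score. Without livers 4 and 8 the r with that score was -0.27 for Cebpa, -0.71 for Cebpb and -0.09 for Cebpd. Of 5 tested LRH-1 targets, Cyp7a1 alone passed the typical-variance test. Nr0b2, the repressor SHP, ranged 2.17-fold, and Scarb1 and Hpx, the most even, 1.38-fold and 1.33-fold. Among these 5 the r with Nr5a2 lay between -0.27 (Cyp7a1) and 0.44 (Scarb1).

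The 3 tested genes whose log2 signals were most like each member over the 8 livers were then listed, out of 4819, as a description. For Cebpa these were Pcnp (r = 0.980), Wbp11 (0.976) and the ribosomal protein gene Rpl41 (0.975), and for Hnf4a they were Dctn3 (0.973), Prr13 (0.957) and Ppm1b (0.948). For Cebpb they were Septin10 (0.942), Hsd17b12 (0.942) and Scpep1 (0.938), and for Cebpd Fadd (0.930), Map7d1 (0.930) and Ctse (0.929). Foxa2 was most like Cipc (0.970), Abcc3 (0.947) and Mcam (0.912), and Foxa3 most like Ddx5 (0.947), Cipc (0.899) and U2af1 (0.896). Cipc, a repressor of the circadian CLOCK protein, was the gene shared by these 2 lists. It read 229 in liver 2 and 291 in liver 5, its highest values, and 153 in liver 6, its lowest. Foxa1 was most like Rps29 (0.936), Erdr1 (0.907) and Pabpn1 (0.906). Nr5a2 was most like Slc9a3r2 (0.971), Gm13205 (0.956) and 0610005C13Rik (0.941). The probe sets of Rpl41, Ppm1b, Map7d1, Ctse and Erdr1 also carry a shared-sequence suffix, so their r may not belong to those genes alone. The r listed were the highest of 4818 values for each member, and all rest on the same 8 arrays.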

How the data were processed

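Per the labels, liver RNA was hybridised to Affymetrix mouse U74Av2 arrays and scanned on a Hewlett-Packard instrument. The authors deposited 1 linear intensity per probe set and array, for 12488 probe sets. How the images were turned into intensities is not given in the sources, and without detection calls a dim signal has no known background. Trimmed means (2% at each end) differed by 0.00896% between arrays, so the deposited scaling was kept. No pair of arrays shared more than 0.296% of its values. Control probe sets (66) were left out. Of the others, 10833 had 1 gene symbol, 396 several and 1193 none. Symbols absent from the annotation were not replaced.

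Values under the 10th percentile (11.2) were set to it, and log2 was taken. Tested were 6211 probe sets with a mean above the median (162). A gene was represented by its brightest tested probe set (4819 genes). Variances over 8 arrays were compared in limma 3.58.1 (R 4.3.3) with an intensity-trended robust prior (F test, 7 and 4.90 degrees of freedom, one-sided). The typical-variance test set each variance against a loess curve (span 0.3) by a one-sided chi-square test (7 degrees of freedom). Both were adjusted by Benjamini-Hochberg, with a threshold of 0.05. Both were also run on simulated data. Where the simulated variances differed among genes, the typical-variance test called many probe sets whose variance had not been raised. Correlations used exact two-sided permutation over all 40320 pairings, in Python 3.11.15, adjusted over 28 pairs or 32 relations. A score is the mean centred log2 signal of a list's tested genes. No pooled r was to be given where a gap of over 50% of the range split the livers, which occurred for none of the 60 relations.

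Named were all member probe sets and listed relatives. From each gene list came up to 4 genes past the typical-variance test, with the 2 widest and 2 most even by fold, and for each member the 3 most similar genes. Members, lists and tests were chosen with earlier results of these data known. Alternatives were other scalings, no floor, no filter, no shared-sequence probe sets, loess span 0.5, averaged probe sets, centring within arrays 1 to 4 and 5 to 8, and leaving out each liver or livers 4 and 8.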

Additional observations from a re-analysis of the deposited data

How the results depend on the processing

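No paired analysis was possible because all samples form 1 group. The counts of members past each test were the same in every setting run, with 1 exception. With signals centred within arrays 1 to 4 and 5 to 8, 1 pair of members passed in place of 0, Foxa2 with Foxa3 (r = 0.99, adjusted p = 0.0486, exact permutation within sets). Leaving out each liver in turn gave 0 to 0 members past the limma test, 2 to 2 past the typical-variance test, 0 to 0 pairs, 0 to 0 relations with other measures, and a mean log2 signal of the 9 probe sets of 9.73 to 9.76. Over all probe sets the limma test called 0 as deposited, 10 after median scaling and 21 without shared-sequence probe sets. It called 4 without liver 2 and 2 without liver 4. None of these were members. Leaving out 1 liver at a time, the r of Foxa2 with Cebpa ran from 0.26 (without liver 5) to 0.80, of Cebpa with Cebpb from -0.77 to -0.38 and of Cebpa with the acute-phase score from -0.87 to -0.61. Without livers 4 and 8 together these were 0.87, -0.22 and, with the score recomputed, -0.30. Scaling to a common median shifted arrays by -0.10 (liver 8) to 0.11 (liver 3) on the log2 scale, and the fold of Cebpb was then 2.46 and of Cebpa 1.93. Each liver had 1 array, so no error within a liver is known, and signals of different probe sets do not give their relative levels. The number of arrays limits the precision of every r.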

Other observations

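Of 21 tested genes for other hepatocyte transcription factors, 3 had r above 0 with Cebpb over the 8 livers and 18 below (median -0.43), beside 43.7% above 0 and a median of -0.09 over all genes. The r was lowest for the lipogenic factor Srebf1 (-0.78). The highest was 0.65, for Ppara. With Cebpa, 16 of the 21 had r above 0 (median 0.33), beside 54.7% and 0.08, led by Nr1i3 (0.90), and the lowest was Xbp1 (-0.64), a factor of the secretory stress response. With Hnf4a, 14 of 21 had r above 0 (median 0.33), beside 55.1% and 0.06, and Ppara had the lowest, at -0.79. These are values over the same 8 arrays, with no test.

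Liver 6 held the lowest value of 3 of the 9 probe sets (Foxa2, Foxa3 and Cebpd), and livers 5 and 2 the highest of 3 each (Hnf4a, Foxa2 and Cebpa in liver 5, and Foxa1, Foxa3 and the brighter Nr5a2 probe set in liver 2). Over all tested genes, 7.74% were lowest in liver 6, 19.5% highest in liver 5 and 13.8% highest in liver 2.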
